A study of Mus musculus with 46 samples.

Results

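The genes described here encode the class I antigen presentation machinery: the heavy chains H2-K1 and H2-D1, the light chain B2m, the peptide transporter subunits Tap1 and Tap2, the loading factor Tapbp, the inducible proteasome subunits Psmb8 and Psmb9, the transcriptional activator Nlrc5 and the peptide-trimming enzyme Erap1. They were chosen by gene symbol, and all 10 were found among the 55487 genes of every library. None was at or under 3 counts in any library; the lowest member count was 23, for Nlrc5, and the highest 91635, for H2-K1.

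Class I molecules carry short peptides from proteins made inside a cell to its surface, where CD8 T cells read them. Proteasomes cut the peptides, the TAP transporter moves them into the endoplasmic reticulum, tapasin and partner chaperones load them onto heavy chains bound to beta-2 microglobulin, and aminopeptidases trim them to length. Interferons raise most of these genes through STAT and IRF factors, and NLRC5 acts on the promoters of class I genes; display on beta cells is studied in autoimmune diabetes, and in healthy liver the hepatocytes, endothelium and resident leukocytes all carry class I.

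The data were RNA-seq of mouse tissue, 46 libraries in 11 groups that fell into 3 experiments. In the first, islets came from Tfam control females (n = 5) and males (n = 3) and from Tfam KO females (n = 4) and males (n = 2). In the second, islets came from animals labelled Clec control or Clec KO, each on a diet labelled RFD (n = 4 and n = 4) or HFD (n = 6 and n = 5), with no sex given. In the third, livers were labelled control (n = 6), Mfn DKO (n = 4) and Tfam KO (n = 3), with the letters AAV in their descriptions; sex was not given for the livers either. Islets were cultured overnight before RNA was taken, and livers were flash frozen. Strain, age, the driver of each deletion and what the controls carry were not given in the sources used here. The labels number biological replicates without naming separate animals, so p-values measure the spread between these libraries.

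Each Tfam islet library held 55223041 to 83342809 counts, each Clec16a islet library 16235173 to 55810879, and each liver library 41961114 to 56894510. Tfam, which packages mitochondrial DNA and takes part in its transcription, fell in Tfam KO islets (log2 fold change -1.21) and Tfam KO livers (-2.004). The mitochondrial fusion genes Mfn1 (-2.003) and Mfn2 (-2.04) fell in Mfn DKO livers. Clec16a, a regulator of mitophagy, was not lower in the libraries labelled Clec KO (log2 fold change 0.13 on RFD, adjusted p = 0.612, and 0.08 on HFD, adjusted p = 0.740), so directions below refer to the libraries labelled Clec16a KO. Among the livers the 3 Tfam KO libraries lay farthest from their group mates (root mean square log2 distances of 0.782, 1.18 and 1.09 against at most 0.631 in the other livers), and in the Clec16a islets the library labelled KO HFD replicate 4 did (0.695). Islet libraries held the beta cell, alpha cell and delta cell markers, which were at or near 0 in liver except Slc2a2. Livers held hepatocyte markers, at a summed 19748 CPM or more. The same 3 markers were not absent from islets, where they summed to 1278 (lowest, Clec16a control HFD) to 6495 CPM (highest, Clec16a KO RFD).

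Of the 10 genes, 7 lie on chromosome 17 in the major histocompatibility region (GRCm38, GENCODE M21). They are Tapbp (chr17:33915899-33929292, plus strand), H2-K1 (chr17:33996017-34000347, minus), Psmb9 (chr17:34181987-34187764, minus), Tap1 (chr17:34187553-34197225, plus), Psmb8 (chr17:34197721-34201454, plus), Tap2 (chr17:34203527-34216321, plus) and H2-D1 (chr17:35262730-35267499, plus). B2m lies on chromosome 2 (chr2:122147686-122153083, plus), Nlrc5 on chromosome 8 (chr8:94434356-94527272, plus) and Erap1 on chromosome 13 (chr13:74639568-74693201, plus). All are protein coding. RefSeq places the starts of Tap1 and Psmb9 225 bases apart, and the genes run in opposite directions.

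Promoter windows from RefSeq (GRCm38.p6) matched 8 of the 10 genes, and stretches of the 3 that encode the class I complex itself are shown because they hold the same motifs. Starts here are those of RefSeq. For H2-D1 both stretches printed lie before the RefSeq start but inside the GENCODE interval given above. The upstream stretch of each of the 3 genes holds a match to the NF-kB consensus, the decamer that NF-kB proteins bind, beside a match to TTTCNNTT, as in interferon response elements. Both are in capitals, and each sequence is read 5′ to 3′ on the strand of its gene; in B2m both matches are on the opposite strand, and in H2-K1 and H2-D1 consensus matches at 2 neighbouring positions, each on both strands, give 11 capitals.
H2-K1, chr17:34000430-34000458, minus strand: GGGGATTCCCCatctccacagTTTCACTT
H2-D1, chr17:35262923-35262951, plus strand: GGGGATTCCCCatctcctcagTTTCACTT
B2m, chr2:122147550-122147570, plus strand: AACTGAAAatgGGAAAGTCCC
Closer to the start, each of the 3 held TGACG and then, after 20 bases, ATTGG, the reverse complement of CCAAT. These are the letters of the X2 and Y boxes through which NLRC5 and the factors CREB and NF-Y are known to act on class I genes, and they are in capitals below.
H2-K1, chr17:34000359-34000388, minus strand: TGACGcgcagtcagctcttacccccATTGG
H2-D1, chr17:35262993-35263022, plus strand: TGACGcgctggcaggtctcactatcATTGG
B2m, chr2:122147609-122147638, plus strand: TGACGacctccggatctgagtccggATTGG

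This spaced pair was found in 25 of 27025 promoter windows of the same length (0.0925%), those 3 genes among them. Searched one at a time on both strands of the 250 bases before the start, CCAAT was present in 6 of the 8 windows (34.5% of all windows) and TGACG in 5 (17.9%). The NF-kB consensus was present in 3 of the 8 (7.01% of all windows) and TTTCNNTT also in 3 (21.6%), in each case H2-K1, H2-D1 and B2m. The motifs were chosen after these sequences had been seen, and a match describes letters, not a bound site. The H2-K1 and H2-D1 windows were 87.9% identical over 190 aligned bases.

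In control tissue the heavy and light chains stood highest and Nlrc5 lowest. On the TPM scale, which divides by gene length, H2-K1 was at 317 ± 31.5 in Tfam control islets (SD, n = 8), 307 ± 37.5 in Clec16a control islets (n = 10) and 1154 ± 190 in control livers (n = 6). B2m was at 151 ± 27.2, 330 ± 86.6 and 2909 ± 232 TPM in the same order, and Nlrc5 at 0.339 ± 0.159, 0.439 ± 0.157 and 4.23 ± 0.723 TPM. Liver levels of H2-K1, B2m and Nlrc5 thus lay above every islet control library. Tapbp ran the other way, with 83.6 ± 9.86 and 107 ± 12.5 TPM in the 2 sets of control islets and 54.1 ± 9.83 TPM in control livers, the lowest set. Tap2 was at 14.9 ± 1.36, 25.05 ± 3.05 and 15.2 ± 1.08 TPM, so that liver overlapped the first set of islets and not the second. Tissue and experiment cannot be told apart here, and in bulk samples fewer cells of a type and less RNA per cell cannot be told apart either.

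Over all 11 groups, mean TPM of B2m spanned 24.5-fold, from 141 in Tfam control males to 3462 in Mfn DKO livers. Nlrc5 spanned 32.1-fold, from 0.289 in Tfam control males to 9.28 in Tfam KO livers. The other members spanned less, from 2.06-fold for Tap2 to 4.64-fold for Psmb8. By mean TPM a liver group was highest for 7 of the 10 genes, whereas Tap2 peaked in Clec16a KO HFD islets, Tapbp in Clec16a control RFD islets and Erap1 in Tfam KO females. By mean CPM on TMM-scaled library sizes, 4 to 9 of the 11 groups held another rank, depending on the gene. Tap2 was then highest in Clec16a control HFD islets (45.7, against 42.2 in KO HFD), as was Tapbp (189). B2m was then highest in control livers (1170), while Erap1 stayed highest in Tfam KO females (108). When the groups were ordered by mean TPM, neighbouring groups overlapped in range at 8 to 10 of the 10 steps for each gene, and at every step for Tapbp and Erap1.

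**Figure D1:**
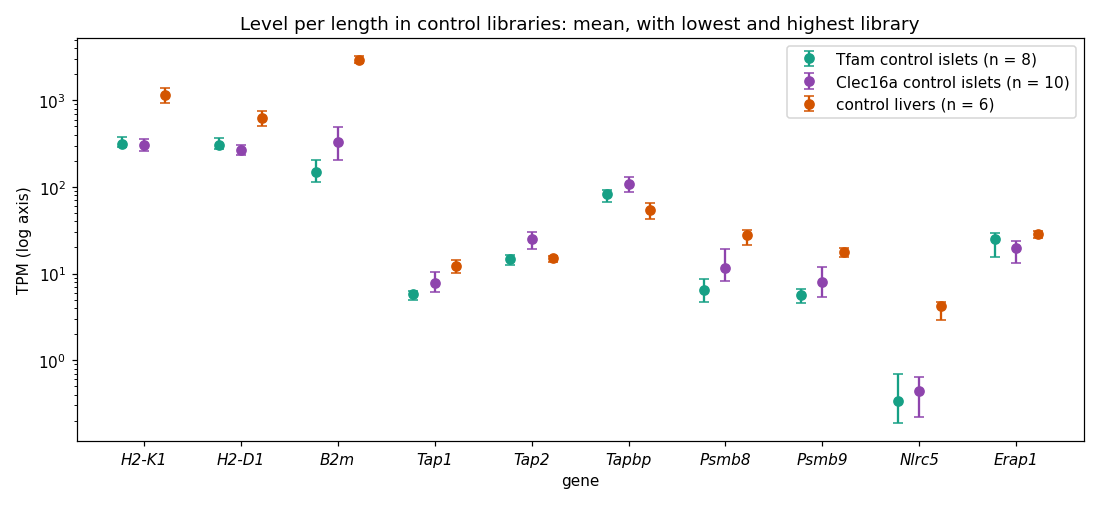
Levels of the 10 genes in control libraries, in TPM on a log axis, for Tfam control islets, Clec16a control islets and control livers; points are means and bars run from the lowest to the highest library. Livers have the highest mean for every gene but Tap2 and Tapbp, and the lowest for Tapbp. Their range lies wholly above both islet sets for H2-K1, H2-D1, B2m, Psmb8, Psmb9 and Nlrc5, and overlaps islets for Tap1 and Erap1.

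**Figure D2:**
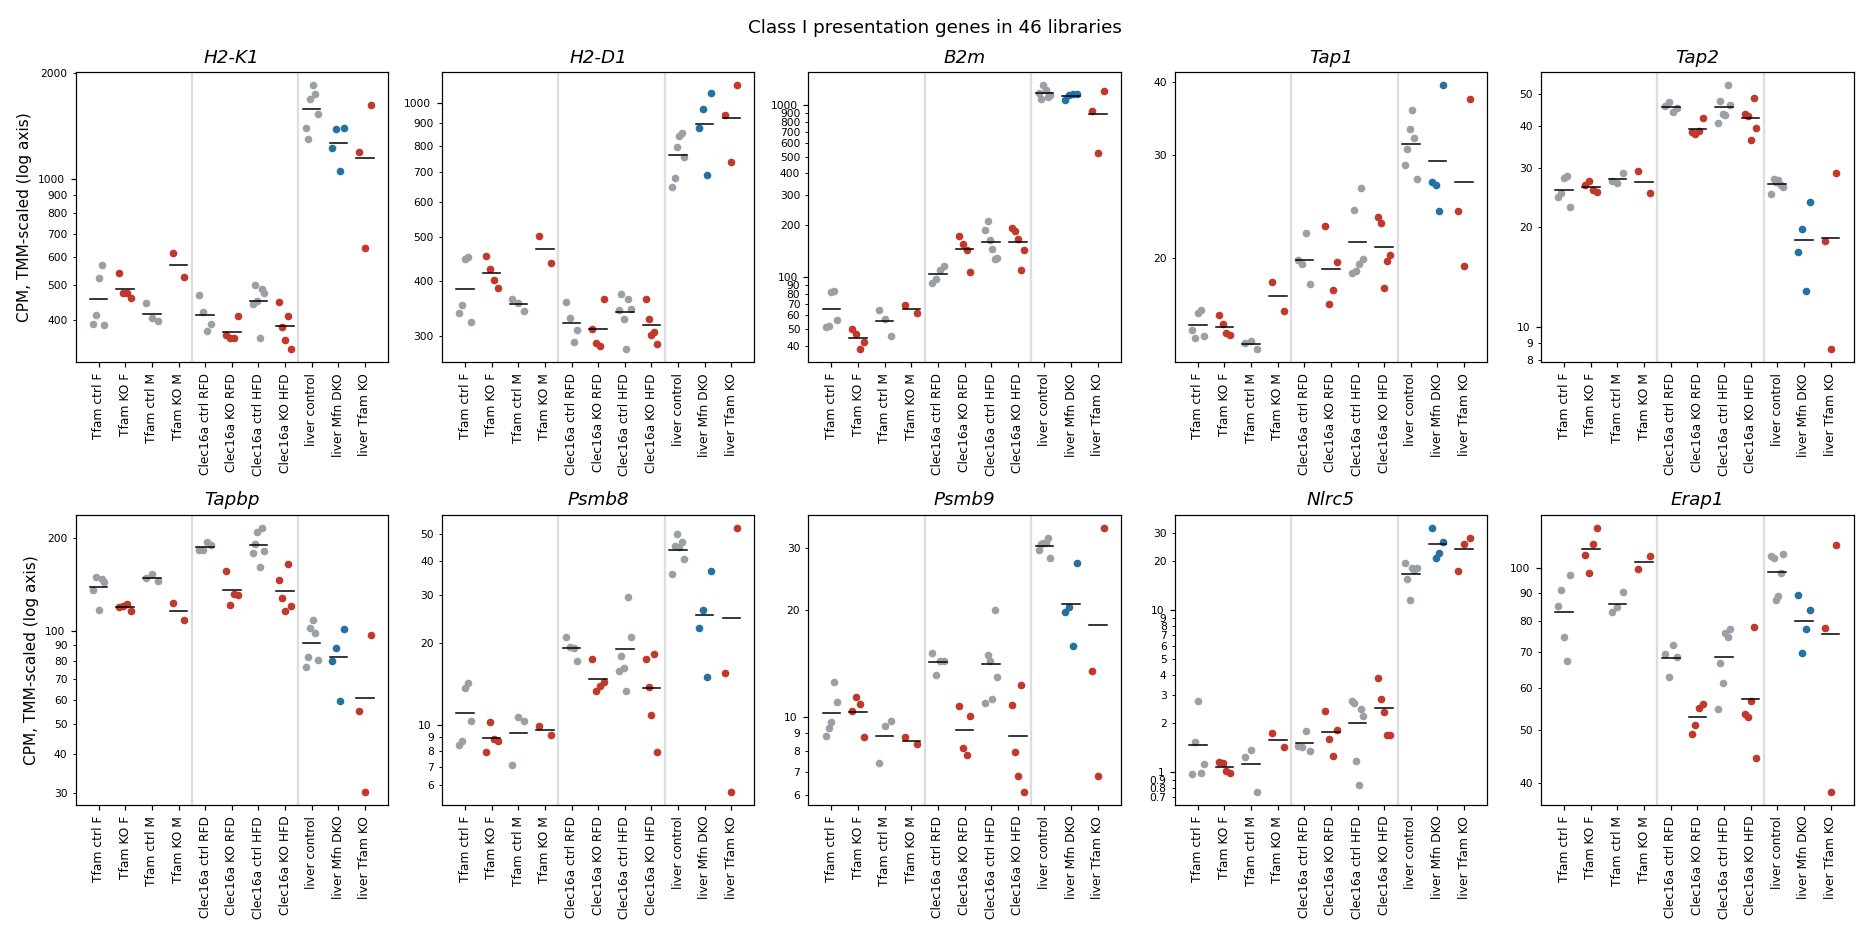
Each panel shows 1 gene, with CPM on TMM-scaled library sizes on a log axis, 1 point per library and a black line at the group mean. Control groups are grey, KO groups red and Mfn DKO livers blue; the Tfam KO livers spread widely, with Psmb8 at 15.5, 5.67 and 52.8 CPM.

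The islets labelled Tfam KO, in which Tfam transcripts were lower, were compared with their controls. Over both sexes, Erap1 rose and Tapbp fell, and the heavy chains, the TAP subunits and the inducible proteasome subunits did not pass the test. This is 2 of 10 genes beside 20.9% of the 19752 genes tested in that comparison (11.6% higher and 9.29% lower), and the median log2 fold change was -0.0010 over the 10 genes and -0.0092 over all genes. Values below are CPM on TMM-scaled library sizes, and tests are edgeR's quasi-likelihood test with Benjamini-Hochberg adjustment over all genes.

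Erap1, the aminopeptidase that trims peptides in the endoplasmic reticulum, was at 84.97, 91.2, 74.5, 67.4 and 97.1 CPM in the control females and 82.8, 84.8 and 90.4 in the control males. It was at 106, 97.8, 111 and 119 CPM in the Tfam KO females and 99.8 and 105 in the Tfam KO males. All 6 KO libraries were above all 8 control libraries, whereas 7.49% of all genes had ranges that did not overlap. This gave a log2 fold change of 0.34 (SE 0.08, adjusted p = 0.00502), and the call held under all 21 alternatives (adjusted p from 0.000939 to 0.0158). Erap1 shares 834 bases of exon with Cast, which lies antisense to it and rose by a log2 fold change of 0.23 (adjusted p = 0.0120); whether the counting used strand is not given in the sources used here, so reads from the shared stretch cannot be told apart.

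Tapbp encodes tapasin, which bridges TAP and the heavy chain during loading. It was at 136, 149, 117, 147 and 144 CPM in control females and 149, 152 and 145 in control males, against 120, 120, 122 and 116 in KO females and 123 and 108 in KO males. Control female replicate 3 lay among the KO libraries and the other 7 controls lay above them all. Tapbp thus had a log2 fold change of -0.26 (SE 0.06, adjusted p = 0.00566; 0.000161 to 0.0445 over 21 alternatives). Direction depended on the scaling: as TPM the median of all genes tested was itself 0.38 higher in KO islets, and there all 10 genes had higher means in KO, Tapbp by 0.12 and Erap1 by 0.72, which is -0.26 and 0.34 relative to that median. B2m, Psmb8, Psmb9 and Nlrc5 changed sign with the scale in the same way. The insulin genes and other beta cell markers fell (4 of 4; summed CPM 171146 to 269980 in controls and 91028 to 125689 in KO), Cd79a was the 1 of 4 B cell markers to fall (sum 10.7 to 16.1 against 1.90 to 5.42), and 2 of 4 dendritic, 2 of 4 fibroblast and 1 of 7 macrophage markers (Cd68) rose. Of the leukocyte markers 0 of 6 were called (sum 25.04 to 47.3 against 24.3 to 39.3), and the part of these markers in the result was not tested.

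The heavy chains, which hold the peptide groove, had positive differences that did not pass. H2-K1 was at 389, 411, 525, 569 and 387 CPM in control females and 445, 405 and 396 in control males, and at 542, 475, 476 and 461 in KO females and 615 and 528 in KO males. Control females 3 and 4 lay within the KO range and the other 6 controls below it. The log2 fold change was 0.23 (SE 0.10, adjusted p = 0.125), and without control female 4 it was 0.29 (adjusted p = 0.0180), and it also passed with a leukocyte covariate (adjusted p = 0.0232). H2-D1 had a log2 fold change of 0.22 (SE 0.09, adjusted p = 0.0867; 0.0189 without control female 4 and 0.0301 without control female 3). In males alone they were 0.46 (adjusted p = 0.0832) and 0.41 (adjusted p = 0.0889). In the same male libraries leukocyte markers summed to 26.4 to 36.4 CPM in controls and 38.6 to 39.3 in KO, macrophage markers to 106 to 116 and 177 to 187, and fibroblast markers to 20.2 to 30.5 and 56.3 to 58.9, and their part in the male differences was not tested.

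B2m, the light chain without which class I does not reach the surface, fell in Tfam KO females. It was at 51.4, 52.2, 82.3, 82.9 and 56.3 CPM in control females and 50.3, 46.9, 38.3 and 42.2 in KO females. The ranges did not overlap for B2m, the 1 of 10 genes apart and lower (5.12% of all genes), or for Erap1, the 1 apart and higher (7.88%). In males it was at 64.2, 57.4 and 45.5 CPM in controls and 69.2 and 62.2 in KO, with overlapping ranges. The log2 fold change was -0.55 in females (SE 0.16, adjusted p = 0.0352) and 0.24 in males (SE 0.21, adjusted p = 0.538), but the difference between the sexes was not called (0.79, SE 0.26, adjusted p = 0.679). On the TPM scale the female difference was -0.11, or -0.50 relative to the median of all genes. The call in females was lost without any 1 of control females 3 (adjusted p = 0.0740) and 4 (0.0670) or KO females 2 (0.0622), 3 (0.120) and 4 (0.0999). It was also lost with the leukocyte covariate, at -0.35 (adjusted p = 0.0705), and in a fit of the compared groups only (adjusted p = 0.0533). Erap1 also rose in females (0.38, SE 0.10, adjusted p = 0.0188; 0.0593 without KO female 3, 0.0737 without KO female 4 and 0.0503 with the leukocyte covariate), so 2 of 10 genes were called beside 10.8% of all genes (6.67% higher and 4.17% lower).

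In males Tapbp was the 1 gene called (log2 fold change -0.36, SE 0.10, adjusted p = 0.0392), beside 8.93% of all genes (5.24% higher and 3.69% lower). In 5 of the 10 genes the KO males lay above every control male and in 1, Tapbp, below, beside 24.5% and 21.1% of all genes. With 2 KO males the Tapbp call was lost when any male library was left out (adjusted p from 0.0696 to 0.338), and also without any 1 of the KO females, which share the estimate of spread (0.0503 to 0.0578). No gene of the 19752 was called for an interaction of genotype and sex (0.0%), with 1230 at an unadjusted p under 0.05 and 34 called by DESeq2.

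Tap1 and Tap2, the transporter's subunits, had log2 fold changes over both sexes of 0.09 (adjusted p = 0.353) and 0.01 (adjusted p = 0.959). Psmb8 and Psmb9, whose products replace standard proteasome subunits after interferon, had -0.18 (adjusted p = 0.390) and -0.01 (adjusted p = 0.967). Nlrc5 had -0.11 (SE 0.26, adjusted p = 0.825) and ranged from 0.756 to 2.74 CPM in controls, a spread that contains all 6 KO libraries. Among genes around the pathway, 3 of 18 interferon-stimulated genes fell and 0 rose: Irgm1 (-0.28, adjusted p = 0.0177), Ifit3 (-0.74, adjusted p = 0.0352) and Oasl2 (-0.47, adjusted p = 0.0391), with a list median of -0.19. Of 15 regulators, 3 fell: the NF-Y subunit Nfyc (-0.25, adjusted p = 0.00427), Stat2 (-0.30, adjusted p = 0.0106) and Irf9 (-0.45, adjusted p = 0.0461), the last a partner of STAT factors. Socs3, a brake on JAK-STAT signalling, fell (-0.95, adjusted p = 0.000185) and the kinase Jak2 rose (0.24, adjusted p = 0.00838). None was called of 6 peptide loading genes, 4 proteasome activators and inducible partners, 3 standard catalytic subunits, 10 other class I genes or 7 class II genes.

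**Figure D3:**
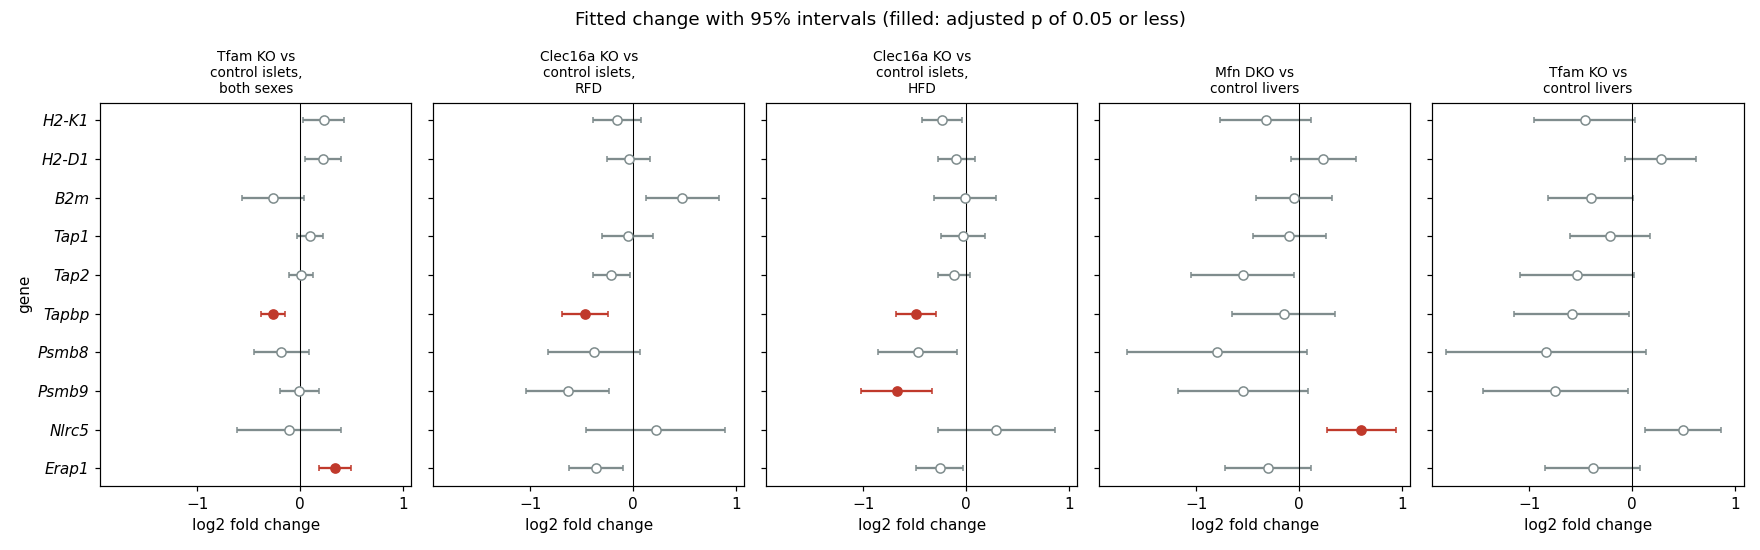
Log2 fold changes of the 10 genes with 95% intervals (normal) in 5 comparisons, filled where the adjusted p was 0.05 or less. Tapbp lies below 0 and is filled in all 3 islet panels on this TMM scale (in Tfam islets it is above 0 as TPM), and Nlrc5 is the filled gene in Mfn DKO livers.

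Islets from animals labelled Clec16a KO were compared with controls within each diet. Tapbp fell on both diets and Psmb9 fell on HFD. That is 1 of 10 genes on RFD, beside 7.52% of 17254 genes tested (3.99% higher and 3.54% lower), and 2 of 10 on HFD, beside 9.57% (5.62% higher and 3.95% lower). The median log2 fold change of the 10 genes was -0.19 on RFD and -0.18 on HFD, against -0.0016 and -0.0019 for all genes, and 8 and 9 of the 10 were negative.

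Tapbp was at 182, 183, 194 and 190 CPM in RFD controls and at 157, 121, 132 and 131 in the libraries labelled KO on RFD, with every KO library below every control. On HFD the controls ran from 161 to 215 CPM (median 186, n = 6), and the KO libraries were at 146, 128, 116, 164 and 121. Replicate 4 of the HFD KO libraries, at 164, was the one that reached into the control range. The log2 fold change was -0.47 on RFD (SE 0.11, adjusted p = 0.0165) and -0.49 on HFD (SE 0.10, adjusted p = 0.00413), and the interaction with diet was -0.02 with a 95% interval of -0.31 to 0.28. The HFD call held under all 27 alternatives, and the RFD call under 25 of 27, being lost without control RFD replicate 3 (adjusted p = 0.0555) or KO RFD replicate 2 (adjusted p = 0.0570). Within sequencing lane 7 the log2 difference was -0.39 on RFD (3 KO against 2 control libraries) and -0.53 on HFD (2 against 3). Within lane 8 it was -0.66 on RFD, which rests on 1 KO library against 2 controls, and -0.45 on HFD (3 against 3). Exons of Tapbp share 149 bases with Zbtb22 and 904 with the antisense Gm19412, neither of which was called on either diet.

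Psmb9, the inducible subunit that replaces Psmb6, was at 15.1, 13.1, 14.4 and 14.4 CPM in RFD controls and 10.7, 8.18, 7.79 and 10.1 in RFD KO libraries. On HFD it ran from 10.96 to 20.02 CPM in controls (median 13.7) and was at 10.8, 7.97, 6.79, 12.3 and 6.14 in KO libraries. The RFD groups did not overlap, and on HFD replicate 4 of the KO libraries again lay in the control range. Psmb9 had a log2 fold change of -0.63 on RFD (SE 0.21, adjusted p = 0.0643) and -0.68 on HFD (SE 0.18, adjusted p = 0.0209). Psmb9 and the antisense Tap1 share 212 bases of exon, and Psmb8 shares 498 with the antisense Gm20496, so without a stated strand the reads there cannot be told apart. The HFD call for Psmb9 was lost without control HFD replicate 5 (adjusted p = 0.0570) or KO HFD replicates 2 (0.0617), 3 (0.0730) or 5 (0.0564). Without control HFD replicate 5 or KO HFD replicate 4 the RFD difference passed (0.0441 and 0.0289).

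Leaving out KO HFD replicate 4, the library farthest from its group mates, widened the HFD differences. Psmb8 then passed at -0.60 (adjusted p = 0.0434) and Erap1 at -0.40 (adjusted p = 0.00613), beside -0.47 (adjusted p = 0.145) and -0.26 (adjusted p = 0.179) with all libraries, while Psmb9 was at -0.83 and Tapbp at -0.57. The number of genes called over the whole table also rose, from 1652 to 3369. On RFD Erap1 was at 69.3, 62.8, 72.2 and 68.4 CPM in controls and 49.3, 51.1, 55.1 and 55.9 in KO libraries, which did not overlap. Its log2 fold change of -0.36 did not pass (adjusted p = 0.106; 0.0264 without KO HFD replicate 4). In all, 4 of 10 genes had RFD ranges that did not overlap, Tap2 (-0.21, adjusted p = 0.168) being the other one, all lower in KO, against 7.33% of all genes; on HFD none of the 10 did, against 2.6%.

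The class I complex itself did not pass on either diet. H2-K1 was at 470, 421, 372 and 389 CPM in RFD controls and 361, 356, 355 and 409 in RFD KO libraries, with a log2 fold change of -0.16 (adjusted p = 0.463). On HFD it was -0.24 (SE 0.10, adjusted p = 0.152), and for H2-D1 the values were -0.04 (adjusted p = 0.862) and -0.09 (adjusted p = 0.606). B2m stood at 92.6, 97.0, 110 and 117 CPM in RFD controls and 173, 155, 144 and 108 in RFD KO libraries, where 3 of 4 KO libraries lay above the controls. Its log2 fold change was 0.48 on RFD (SE 0.18, adjusted p = 0.119) and -0.01 on HFD (SE 0.15, adjusted p = 0.974), and the interaction was not called (-0.49, SE 0.24, unadjusted p = 0.0535). No gene was called for that interaction (0.0% of 17254; 406 at an unadjusted p under 0.05; 20 by DESeq2). Tap1 and Nlrc5 had log2 fold changes of -0.05 and 0.22 on RFD and -0.04 and 0.29 on HFD, none called. On HFD, H2-D1, B2m, Tap1 and Tap2 had means higher in KO on the TPM scale, where the median of all genes was 0.19 higher, and H2-D1 did so on RFD; Tapbp, Psmb9, Psmb8 and Erap1 stayed lower on both scales.

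In the surrounding pathway Ergic1 rose on RFD (log2 fold change 0.65, adjusted p = 0.00754) and HFD (0.57, adjusted p = 0.00359), the 1 of 6 genes in the peptide loading list to do so on each diet; it encodes a protein of transport between endoplasmic reticulum and Golgi rather than a loading factor. The kinase Jak1, which serves all interferon receptors, fell on both (-0.46, adjusted p = 0.0174, and -0.40, adjusted p = 0.0139), as did Irf1, a direct activator of class I and inducible proteasome genes (-0.46, adjusted p = 0.0402, and -0.42, adjusted p = 0.0245). Nfyc fell (-0.37, adjusted p = 0.0334) and Socs3 rose (0.86, adjusted p = 0.00997) on RFD, and the proteasome activator Psme1 fell on HFD (-0.44, adjusted p = 0.0234). None of the 18 interferon-stimulated genes was called on either diet (medians -0.14 and -0.16). All 5 endothelial markers were higher in the KO libraries on both diets (summed CPM 341 to 371 against 575 to 685 on RFD, and 326 to 436 against 368 to 687 on HFD, where the lowest KO value was that of replicate 4). Leukocyte markers were not called (34.2 to 40.0 against 32.3 to 47.2 on RFD, 33.4 to 83.8 against 33.9 to 113 on HFD). C1qa, from the list of 7 macrophage markers, fell on both diets (sum of the 7 161 to 192 against 110 to 155 on RFD, 111 to 207 against 103 to 181 on HFD). Cd79a, from the list of 4 B cell markers, also fell on both. The sum of those 4 was 9.18 to 18.8 against 3.33 to 7.03 on RFD, and 8.21 to 37.2 against 2.67 to 45.4 on HFD, where the highest library was a KO. Their part in the differences was not tested.

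Diet by itself was compared within each genotype, with the same libraries. Of 17254 genes, 0.0406% were called in control islets and 0.0116% in the libraries labelled Clec16a KO, and 0 of the 10 genes in each; 973 and 946 genes had an unadjusted p under 0.05, and DESeq2 called 54 and 42. In controls B2m ran from 127 to 211 CPM on HFD (median 155), above the 92.6 to 117 of RFD, with a log2 fold change of 0.63 (SE 0.17, adjusted p = 0.454). It was the 1 of 10 genes whose ranges did not overlap, against 1.49% of all genes. In KO libraries its difference was 0.14 (SE 0.17), and no member's ranges were apart (1.29% of all genes). The 18 interferon-stimulated genes were all positive in controls (median 0.37) and 17 of 18 positive in KO libraries (median 0.29), with 0 called, and leukocyte markers were positive in 6 of 6 in both. In control islets exocrine markers summed to 1772 to 3603 CPM on RFD and 3850 to 11593 on HFD, and the alpha cell gene Gcg was at 53464 to 74669 and 31976 to 50093, neither range overlapping; their part in the B2m difference was not tested.

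Livers labelled Mfn DKO, in which both mitofusin transcripts were lower, were set against the control livers, which also served the Tfam KO comparison. Nlrc5 rose and was the 1 of 10 genes called, beside 9.87% of 17024 genes (5.23% higher and 4.64% lower). Of the 10 genes 8 were negative, with a median log2 fold change of -0.23, against 0.018 for all genes. Nlrc5, the class I transactivator, ran from 11.5 to 19.7 CPM in control livers (median 17.9, n = 6) and was at 32.2, 21.0, 22.6 and 26.3 in Mfn DKO livers, all above the controls. Its log2 fold change was 0.61 (SE 0.17, adjusted p = 0.0435). Leaving out any 1 of the 6 control libraries (adjusted p from 0.0572 to 0.0883) or the 4 Mfn DKO libraries (0.0571 to 0.151) lost the call, whose value without Mfn DKO replicate 1 was 0.47. In Tfam KO livers Nlrc5 was at 17.5, 25.5 and 28.1 CPM, 1 of 3 within the control range, with a log2 fold change of 0.50 (SE 0.19, adjusted p = 0.0630; 0.67 and 0.0306 without Tfam KO replicate 1).

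The inducible proteasome subunits and Tap2 were lower in most Mfn DKO livers without passing the test. Tap2 ran from 24.98 to 27.9 CPM in controls and was at 16.8, 19.7, 12.8 and 23.8 in Mfn DKO livers (log2 fold change -0.55, SE 0.26, adjusted p = 0.182). Psmb9 ran from 28.1 to 32.0 CPM in controls and was at 19.8, 20.4, 15.9 and 27.3 (-0.55, SE 0.32, adjusted p = 0.289). For both genes every Mfn DKO library was below every control; with Nlrc5 that makes 3 of 10 genes with ranges apart, against 19.2% of all genes. Psmb8 ran from 35.7 to 50.3 CPM in controls and was at 22.7, 26.4, 14.9 and 36.8 (-0.80, SE 0.45, adjusted p = 0.263). A fit of the 2 groups alone, without the widely spread Tfam KO livers in the estimate of error, called 5 of the 10 genes: Tap2, Psmb8, Psmb9 and Erap1 lower and Nlrc5 higher. Of all genes that fit called 4338, against 1681 (9.87%) in the main fit. With the level of 6 leukocyte markers as a covariate 6 were called, all lower: H2-K1 (-0.68), Tap1 (-0.40), Tap2 (-1.01), Tapbp (-0.63), Psmb8 (-1.68) and Psmb9 (-1.12), beside 3333 of all genes. H2-K1, H2-D1, B2m, Tap1, Tapbp and Erap1 had log2 fold changes of -0.32, 0.23, -0.05, -0.10, -0.15 and -0.30, none called; on the TPM scale, where the median of all genes was 0.32 higher in Mfn DKO livers, B2m, Tap1, Tapbp and Erap1 were not lower.

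In Tfam KO livers none of the 10 genes was called (the 10 had a median log2 fold change of -0.43, all genes 0.031), beside 29.3% of all genes; 7133 of 17024 genes had an unadjusted p under 0.05. The 3 libraries differed greatly from one another. Psmb8 was at 15.5, 5.67 and 52.8 CPM, so that replicate 3 lay above all 6 controls (35.7 to 50.3) and replicates 1 and 2 far below them. Psmb9 was at 13.5, 6.80 and 34.2 CPM against 28.1 to 32.0 in controls, and Tapbp at 55.3, 30.3 and 97.0 against 76.3 to 109. Tap2 (18.1, 8.61 and 28.9), B2m (925, 526 and 1203) and Erap1 (77.6, 38.4 and 110) had the same order of libraries. On this TMM scale replicate 2 was lowest for every member except Nlrc5, and replicate 3 was within or above the control range for all 10. The order depends on the scaling: as TPM, H2-D1 spanned only 1138 to 1186 in the 3 libraries.

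With all 3 libraries the log2 fold change was -0.83 for Psmb8 (SE 0.49, adjusted p = 0.219), -0.75 for Psmb9 (adjusted p = 0.131) and -0.59 for Tapbp (adjusted p = 0.137). For H2-K1 it was -0.46 (adjusted p = 0.179), for B2m -0.40 (adjusted p = 0.164) and for H2-D1 0.28 (adjusted p = 0.256). Without replicate 3, 8 of the 10 genes were lower and called: Psmb8 at -2.07 (adjusted p = 0.0011), Psmb9 -1.61, Tapbp -1.11, Tap2 -1.02, H2-K1 -0.81, Erap1 -0.78, B2m -0.71 and Tap1 -0.55 (adjusted p = 0.0265). In that fit 7330 genes were called over the whole table, against 4992 with all libraries. With the leukocyte covariate 5 were: Psmb8 (-1.28), Psmb9 (-0.98), Tapbp (-0.68), Tap2 (-0.64) and H2-K1 (-0.50), beside 5803 of all genes. The median over all genes was 0.66 higher in Tfam KO livers on the TPM scale, where H2-K1, B2m, Tap1 and Erap1 had means above the controls and Tapbp, Tap2, Psmb8 and Psmb9 below. Hepatocyte markers summed to 75052 to 122830 CPM in controls, 64089 to 83505 in Mfn DKO and 19748 to 81530 in Tfam KO livers (2 of 3 lower in Tfam KO), leukocyte markers to 60.9 to 121, 89.3 to 178 and 45.8 to 140, and Kupffer cell markers to 350 to 635, 430 to 1028 and 196 to 630. Their part in the spread was not tested. Between the Tfam KO and Mfn DKO livers 0 of 10 genes were called, beside 0.294% of all genes (3480 at an unadjusted p under 0.05, and 1087 called by DESeq2).

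Around the pathway, Jak1 rose in Mfn DKO livers (log2 fold change 0.51, adjusted p = 0.00866) and Tfam KO livers (0.58, adjusted p = 0.00293), 2 comparisons that share controls. In Tfam KO livers the interferon gamma receptor chain Ifngr1 (1.57, adjusted p = 0.00379) and Jak2 (0.68, adjusted p = 0.00587) rose too, 4 of 9 receptor and kinase genes being higher, where 18.1% of all genes were higher and 11.3% lower. Of 18 interferon-stimulated genes 1 fell, Irgm1 (-1.12, adjusted p = 0.0293), with 2 of 18 positive and a median of -0.85; in Mfn DKO livers 0 were called, with 6 positive and a median of -0.25. Fcgrt, a class I-like carrier of antibodies (-0.84, adjusted p = 0.00448), and Cd1d1, which presents lipids (-1.47, adjusted p = 0.0116), fell in Tfam KO livers, 2 of 10 other class I genes. Nfya rose (0.68, adjusted p = 0.0103) and 3 of 15 regulators fell. The 7 class II genes were all positive in Mfn DKO livers, with a median of 0.54 and 0 called.

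Ratios of TPM within a library do not depend on how libraries are scaled. The ratio of H2-K1 to H2-D1 was 1.89, 1.68, 1.86, 1.92, 1.78 and 1.77 in the control livers. It was 1.22, 1.26, 1.34 and 1.16 in Mfn DKO livers and 1.11, 0.760 and 1.297 in Tfam KO livers, so that both KO groups lay wholly below the controls, Tfam KO replicate 3 included. The means were 1.82 ± 0.0915 (SD, n = 6), 1.24 ± 0.0744 (n = 4) and 1.06 ± 0.273 (n = 3). Two-sided exact permutation p was 0.00476 for Mfn DKO (adjusted over 25 ratio tests, 0.0595) and 0.0119 for Tfam KO (adjusted, 0.0714), each the smallest its group sizes allow. The 2 heavy chains are close relatives: of the 151-base windows of the H2-D1 transcript 1.74% occurred also in another gene, most often H2-Q1, and for H2-K1 none did. In Tfam islets the ratio was 1.04 ± 0.0316 in KO (n = 6) and 1.04 ± 0.0359 in controls (n = 8; exact permutation p = 0.811). In the libraries labelled Clec16a KO it was 1.04 ± 0.0495 against 1.12 ± 0.0214 on RFD (exact permutation p = 0.0286, adjusted 0.0714; ranges apart) and 1.06 ± 0.0681 against 1.17 ± 0.0407 on HFD (exact permutation p = 0.0152, adjusted 0.0714).

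Light chain per heavy chain, B2m over the sum of H2-K1 and H2-D1 in TPM, was 0.173 ± 0.0254 in Tfam KO islets (n = 6) and 0.241 ± 0.0248 in controls (n = 8; exact permutation p = 0.00317, adjusted 0.0595; overlapping). In females the KO libraries ran from 0.140 to 0.167 (n = 4) and the controls from 0.220 to 0.272 (n = 5). In males the KO libraries, at 0.199 and 0.207 (n = 2), lay within the control range of 0.198 to 0.255 (n = 3). In livers it was 1.65 ± 0.178 in controls, 1.72 ± 0.284 in Mfn DKO and 1.35 ± 0.116 in Tfam KO (exact permutation p = 0.662 and 0.0476, the latter adjusted to 0.108). The inducible Psmb9 per standard Psmb6 was 0.0473 ± 0.00917 in RFD libraries labelled Clec16a KO against 0.0791 ± 0.00544 in controls, with ranges apart (exact permutation p = 0.0286, adjusted 0.0714). On HFD it was 0.0484 ± 0.0222 against 0.0790 ± 0.0168 (exact permutation p = 0.0238, adjusted 0.0714). Psmb8 per Psmb5 was 0.0639 in Tfam KO islets against 0.0790 in controls (exact permutation p = 0.00952, adjusted 0.0714). Of the 25 ratio tests 11 had a raw p of 0.05 or less, and none passed after adjustment.

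**Figure D4:**
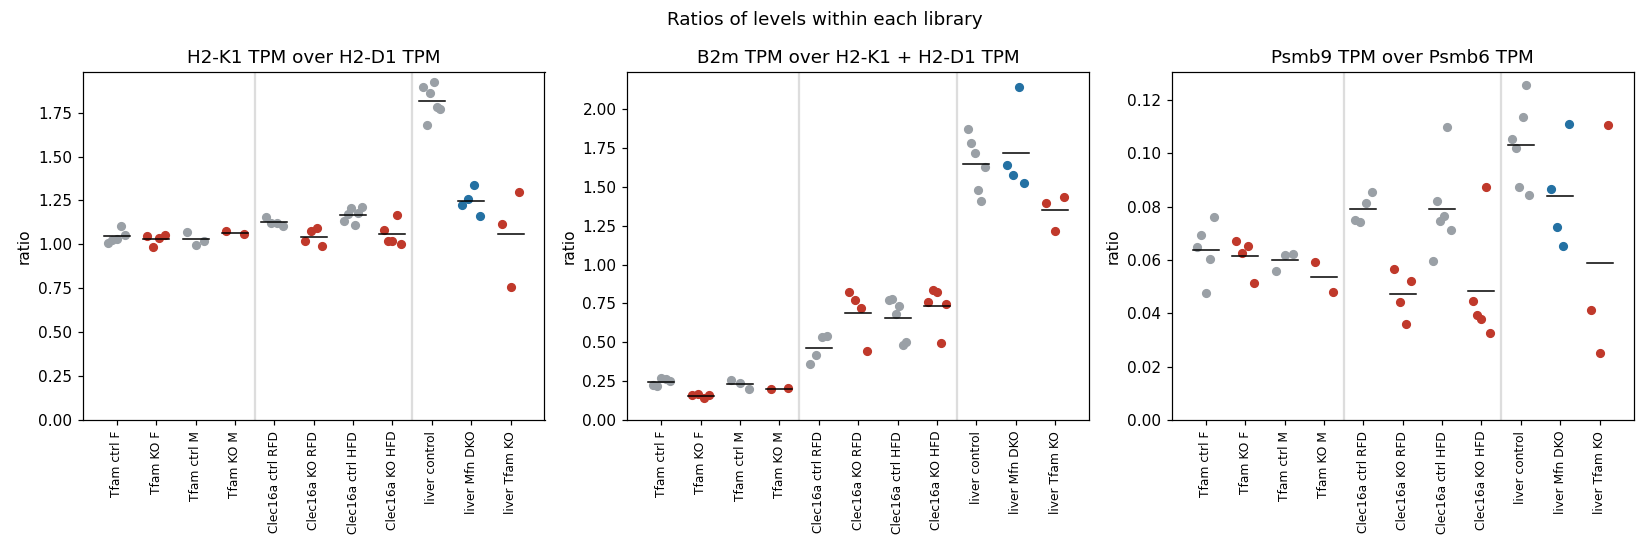
Ratios of TPM within each library, 1 point per library with a line at the group mean: H2-K1 over H2-D1, B2m over both heavy chains, and Psmb9 over Psmb6. In the first panel control livers lie between 1.68 and 1.92, above all Mfn DKO and Tfam KO livers; axes start at 0.

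Within groups the members varied together to different degrees. After each group mean was removed, the median Pearson correlation of residual log2 CPM over the 45 pairs of members was 0.33 in Tfam islets (14 libraries), 0.52 in Clec16a islets (19) and 0.85 in livers (13). These are descriptions over libraries that share depth and cell makeup, and in livers they include the discordant Tfam KO replicates. H2-K1 and H2-D1 were at 0.97 in Tfam islets, 0.92 in Clec16a islets and 0.87 in livers. Psmb8 and Psmb9 were at 0.72, 0.88 and 0.99 in the same order. The gene that stood apart differed: Erap1 in Tfam islets (median correlation with the other members -0.79), B2m in Clec16a islets (-0.11) and Nlrc5 in livers (0.03). The genes outside the set whose residuals were most like the members' mean were 1110012L19Rik (0.95), Ush1c (0.94), Gbp3 (0.92), Trmt112 and Iigp1 (0.91) in Tfam islets, of 13786 genes ranked. In Clec16a islets they were Gm6548 (0.87), Ube2l6 (0.86), H2-Aa (0.85), Mcm6 (0.83) and Klc3 (0.82), and in livers Lyn (0.99), Sp100 (0.99), Gabbr2 (0.98), Uba7 (0.98) and Serpina3m (0.98).

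**Figure D5:**
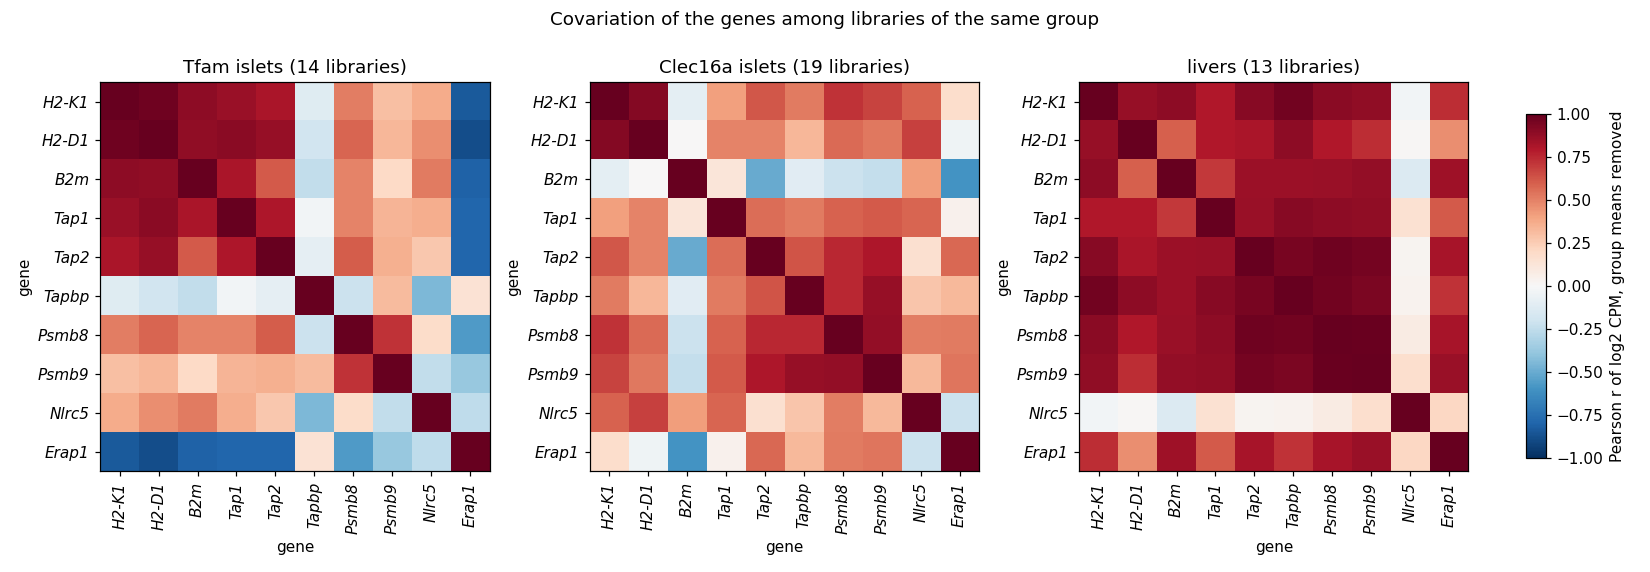
Heat maps of Pearson correlations between residual log2 CPM of the 10 genes in Tfam islets, Clec16a islets and livers, with group means removed. Most cells are positive, with Erap1 negative in Tfam islets, B2m weak in Clec16a islets and Nlrc5 weak in livers.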

How the data were processed

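The authors aligned 151-base paired-end reads to GRCm38; the submitters' processing notes name STAR 2.6.1b, RSEM 1.3.1, featureCounts and DESeq2, with no account of strand. Each deposited file gives, per gene, raw counts, CPM and TPM by the authors; the deposited CPM equals count over library total, and the deposited TPM uses 1 fixed length per gene. Of 55487 gene identifiers 55141 were found in GENCODE M21. The members and lists were chosen with earlier results of these data known.

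Counts of each of the 3 experiments were fitted alone with edgeR 4.0.16 (R 4.3.3, limma 3.58.1): filterByExpr, TMM scaling, quasi-likelihood test, Benjamini-Hochberg adjustment over all genes passing the filter, calls at an adjusted p of 0.05 or less. CPM printed per library are on TMM-scaled library sizes. A log2 fold change is KO minus control, or HFD minus RFD, and its standard error comes from the test statistic. Ratios of TPM were tested on the log2 scale with two-sided exact permutation tests (SciPy 1.17.1). In Tfam islets these used 1260 permutations, the number possible within sex. Levels across experiments were not tested. Alternatives were size factors of DESeq2, its Wald test (1.42.0), 2 other filters, a replicate block, leukocyte, Xist or lane covariates, fits of the compared groups alone and leaving out each library; scripts were tested on simulated data. The text names the 10 members in each comparison, of each pathway list at most 3 called genes with the smallest adjusted p, and 5 genes most like the members per experiment (mean CPM of at least 1). Libraries were treated as unpaired in the main fits. The median correlation of same-numbered libraries was 0.0653 in Tfam islets, -0.0163 in Clec16a islets and 0.0873 in livers. Single liver pairs ran from -0.343 to 0.350, 5 of 10 being over 0.1. These medians cannot exclude a pairing by replicate number.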

Additional observations from a re-analysis of the deposited data

Results flagged for a closer look

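H2-K1 in the library labelled Clec16a KO RFD replicate 4 was at 408.7 CPM, far above the other 3 of its group, which lay between 355.0 and 360.7. B2m in Mfn DKO liver replicate 1 was at 1069 CPM, below the other 3 at 1146 to 1155. These were the 2 libraries found to stand apart in 80 combinations of gene and group examined, and chance alone picks out about 1 in 20.

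In the Tfam islets, of 40 pairs of effects compared, the log2 fold change of B2m was 0.24 in males and -0.55 in females, and that of Nlrc5 was 0.49 in males and -0.46 in females. Neither difference between the sexes passed edgeR's interaction test (adjusted p = 0.679 and 0.839).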

How the results depend on the processing

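Each listed alternative was run. Values were recomputed for the counts and for the 39 pairs of member and comparison called under any setting, and 1189 stayed the same. For a member this means that direction and side of the threshold were kept. For a count it means a change of at most 1.5 times, 0 against 0 included, so the 1189 mix both kinds. Of the member values, 53 passed only under the alternative, 44 no longer passed and 6 reversed. A further 130 counts moved by over 1.5 times. The cause was not tested. Over all 120 pairs of member and comparison, 44 took both signs over the settings, 42 of them never called. The number of members called moved as follows. In Tfam females it was 1 instead of 2 under the replicate block (B2m lost, adjusted p = 0.0732), with the compared groups only (B2m lost) and with the leukocyte covariate (B2m and Erap1 lost, Tapbp called with adjusted p = 0.0348). In Tfam males it was 0 with no filter, under the block or with the leukocyte covariate, 3 with the compared groups only and 4 by DESeq2, instead of 1. Over both sexes it was 4 with the leukocyte covariate. In Clec16a islets on RFD it was 2 by DESeq2 and 3 with the compared groups only, and on HFD 1 under the block or with the compared groups only. In the main fits 2142, 1764 and 4119 of all genes were called in Tfam females, males and both sexes. In Clec16a islets 1298 were called on RFD and 1652 on HFD. Under the alternatives just named for islets these counts stayed within 1.5 times, except DESeq2 in Tfam males (2708) and the block on HFD (975). In Mfn DKO livers it was 0 with no filter or under the block, 6 with the leukocyte covariate and 5 with the compared groups only, and in Tfam KO livers 5 with the leukocyte covariate.

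Over all genes, DESeq2 called 2708 in Tfam males, 34 for the interaction with sex, 20 for that with diet, 54 and 42 for diet in control and KO islets, 2870 in Mfn DKO livers and 1087 between Tfam KO and Mfn DKO livers. The replicate block, for which a pairing was neither shown nor excluded, gave 36 for the interaction with sex, 975 for Clec16a on HFD and 3 for diet in controls. In livers the block gave 169 for Mfn DKO, 395 for Tfam KO and 6 between them. It changed no other count of genes by over 1.5 times. With no filter 30 genes were called for the interaction with sex and 6 for diet in KO islets. The lane covariate gave 3 for diet in controls, and a minimum of 10 counts gave 27 between the KO livers. The leukocyte covariate gave 3333 in Mfn DKO livers. With the compared groups only the counts were 4338 and 3228 for Mfn DKO and Tfam KO livers, 7 between them and 0 for diet in KO islets.

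Leaving out 1 library gave 1336 to 2626 genes and 0 to 2 members in Tfam females, 578 to 2541 and 0 to 3 in males, 3096 to 4995 and 2 to 4 over both sexes, and 0 to 1 and 0 to 0 for the interaction. In Clec16a islets the ranges were 523 to 2015 and 0 to 3 on RFD, 786 to 3369 and 1 to 4 on HFD, 0 to 0 for the interaction, and 3 to 12 and 0 to 31 for diet in control and KO islets. In livers they were 686 to 3379 and 0 to 2 for Mfn DKO, 2504 to 7330 and 0 to 8 for Tfam KO, and 24 to 4204 and 0 to 4 between them. Between Tfam KO and Mfn DKO livers 8 of 10 members took both signs; H2-K1, H2-D1, Tap1, Tap2, Nlrc5 and Erap1, never called there, did so too. Among members called there under some setting the sign reversed for Psmb8 (0.40 with the leukocyte covariate, 0.21 without Mfn DKO replicate 4, 0.21 without Tfam KO replicate 1 and 0.44 without Tfam KO replicate 2, against -1.26 without Tfam KO replicate 3) and for Psmb9 (0.14 with the leukocyte covariate and 0.19 without Tfam KO replicate 2, against -1.04 without Tfam KO replicate 3).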

Other observations

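The livers carry no label of sex. Xist was at 0.297 CPM or less in control replicates 1, 2 and 6 and at 380, 461 and 615 in the other 3 control livers, at 0.0847 and 0.363 in Mfn DKO replicates 1 and 3 and at 641 and 553 in replicates 2 and 4, and at 0.705, 781 and 788 in the 3 Tfam KO livers. Among the Tfam KO livers, replicate 1 is in the low set and replicates 2 and 3 are in the high set. The part of this difference in their spread was not tested.

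The sign of the interaction of genotype and sex in Tfam islets was positive for 18 of 18 interferon-stimulated genes (median 0.77) and 10 of 10 other class I genes (median 0.34), with 0 called in each. Of all genes 49.8% were positive. The signs come from the same few libraries, with n = 2 KO males, and are not separate results. In control females leukocyte markers summed to 25.04 to 47.3 CPM and T and NK cell markers to 0.289 to 4.79, and their part was not tested. In females 5 of the 18 interferon-stimulated genes fell, where 4.17% of all genes were lower, among them Ifit3 (log2 fold change -1.05), Oasl2 (-0.66) and Ifit1 (-0.59). In males 13 of 18 were positive, where 50.5% of all genes were. There 1 rose, where 5.24% of all genes were higher: Iigp1 (1.46, adjusted p = 0.0425 in edgeR's test).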
